A study of Mus musculus with 13 samples.

Results

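The genes described are 10 integrin subunits through which fibroblasts hold the extracellular matrix, taken by symbol from the 55487 genes counted: the alpha subunits Itga1, Itga3, Itga5, Itga6, Itga8, Itga11 and Itgav and the beta subunits Itgb1, Itgb3 and Itgb5. An integrin is a pair of one alpha and one beta chain in the plasma membrane, and the alpha chain largely sets which matrix protein is bound. Itgb1 pairs with all of these alpha chains, Itgb3 and Itgb5 with Itgav, and inside the cell the beta tails join the actin cytoskeleton through talin, kindlin and vinculin. In embryonic fibroblasts these receptors carry attachment to collagen, laminin and fibronectin, spreading, migration and the pull on the matrix.

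Poly-A RNA of fibroblasts grown from mouse embryos (MEFs) was sequenced in the primary state and again after spontaneous immortalization, that is, serial passage through senescence until a dividing line grew out. The wild-type (WT) cells gave 3 primary libraries, clones 3, 4 and 5, and 3 libraries of the lines grown from them. Cells labelled Prkd3-/-, for the protein kinase D3 gene, gave primary libraries 13, 14 and 15 and immortalized libraries 13, 13a, 14 and 15, where 13 and 13a share the number of an embryo. Cells were grown in 10% fetal calf serum, which was raised to 20% at senescence and, by the study's methods, lowered again to 10% for the established lines. The lines had thus passed through more passages and a phase of higher serum, which cannot be told apart from immortalization. Each immortalized library is 1 outgrown line, which limits a group to 3 or 4 such lines. Age of the embryos and strain are not given in the sources used here.

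Library totals ran from 35273408 to 100441756 counts, so 3 counts were worth 0.0299 to 0.085 CPM (counts scaled to a common library size), and p-values measure the spread between these libraries. Levels are CPM scaled by TMM over all 13 libraries, and RPKM, CPM per kilobase of the listed exons, where genes are compared. By library size, Prkd3 itself was at 69.8 to 84.3 CPM in WT and 33.9 to 64.0 CPM in the libraries labelled Prkd3-/-, and counts per gene cannot show whether exons are missing. Each WT primary library held both the X-inactivation RNA Xist (43.8 to 55.9 CPM) and the Y-linked Ddx3y (51.6 to 63.7 CPM), although each is labelled as 1 clone. WT line 3 held Xist with Ddx3y at 0.209 CPM. WT lines 4 and 5 held both, with Xist at 157 and 56.0 CPM and Ddx3y at 33.2 and 65.1 CPM. All Prkd3-/- libraries held Ddx3y with Xist at 0.156 CPM or less. The 10 fibroblast markers, led by Fn1 and Col1a1, summed to 30899 CPM or more in every library, and none was at 0. That sum hides single markers that differed widely between lines. Dcn was at 0.661, 0.382 and 0.701 CPM in WT line 3 and Prkd3-/- lines 13 and 15, and at 92.3 to 455 CPM in the other lines. Lum was at 0.0483 CPM in WT line 3 and at 0.297 to 93.5 CPM in the others. The 12 macrophage markers, led by Lyz2 and Csf1r, summed to 1505 to 1550 CPM in WT primary libraries and 61.5 to 158 CPM in WT lines. In Prkd3-/- primary libraries that sum was 166, 2138 and 401 CPM for 13, 14 and 15, and in the lines 14.8 to 354 CPM, so primary 14 stood apart. The endothelial markers summed to 16.1 to 20.3 CPM in WT primary libraries and 2.32 to 3.96 CPM in WT lines, and the muscle markers to 54.4 to 57.3 and 6.31 to 40.5 CPM. In Prkd3-/- the endothelial sum was 20.7 to 34.6 CPM in primary libraries and 6.99 to 24.8 CPM in lines, and the muscle sum 29.6 to 68.1 and 3.19 to 40.6 CPM. Neural crest markers summed to 12.7 CPM or less throughout, and the smooth muscle list, led by Acta2 and Tagln, to 2878 to 10941 CPM. In such bulk samples fewer cells of a type and less RNA per cell cannot be told apart.

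For Itga1, whose level differed most among the lines, and Itgb1, the most abundant of the 10, the 250 bases before the start site are shown (RefSeq, GRCm38.p6, 5′ to 3′ on the gene's strand), since these are the extremes of the levels described. Capitals mark GGGCGG (the GC box) and CATTCC (the TEAD core), searched on both strands. The Itga1 window lies at chr13:115101965-115102214 on the minus strand, and the Itgb1 window at chr8:128685404-128685653 on the plus strand.
Itga1: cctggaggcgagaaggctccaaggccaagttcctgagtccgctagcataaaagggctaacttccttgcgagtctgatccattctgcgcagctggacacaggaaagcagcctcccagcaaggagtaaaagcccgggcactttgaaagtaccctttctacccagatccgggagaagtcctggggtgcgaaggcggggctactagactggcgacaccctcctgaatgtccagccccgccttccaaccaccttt
Itgb1: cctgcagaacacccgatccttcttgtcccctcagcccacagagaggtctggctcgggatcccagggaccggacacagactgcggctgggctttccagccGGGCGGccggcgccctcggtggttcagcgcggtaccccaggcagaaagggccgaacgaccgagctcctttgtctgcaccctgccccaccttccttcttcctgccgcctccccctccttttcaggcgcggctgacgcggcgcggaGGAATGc
The Itga1 window held 10 CG dinucleotides with 57.6% G and C and had no match to either motif, while the Itgb1 window held 21 with 68% and had a match to each. Windows were found for 8 of the 10 genes, 9 windows in all since Itga3 has a pair of listed starts. GGGCGG was in 5 of the 9 windows and in 32.7% of all 32817 windows of this length. CATTCC was in 1 and in 12.6% of all, and the AP-1 motif TGANTCA was in none of the 9 and in 6.75% of all. A match describes letters in this window only.

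Within WT, none of the 10 genes passed the thresholds of an adjusted p under 0.01 and a |log2FC| of at least 1 in edgeR's quasi-likelihood test, where 361 of 19836 genes (1.82%) did. At an unadjusted p under 0.05 were 3 of the 10, Itga1, Itga6 and Itga11, against 19.7% of all genes. DESeq2 at the same thresholds called 1 of the 10, Itga6, lower in the lines, against 4.08% of 33349 genes called and 3.71% called lower. These 33349 include genes of low level that edgeR's filter left out, so this share and that of edgeR have unlike bases. The libraries of both states did not overlap for 4 of the 10, against 31.3% of all genes tested, so that share is near the background. Itga1, Itga6 and Itga8 were lower in every line, against 17.4% of genes, and Itga11 was higher, against 13.9%. The median log2FC of the 10 was 0.17 and that of all genes tested was 0.04. The plot of CPM by library shows that the primary WT points lie together while those of the lines spread out.

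**Figure D1:**
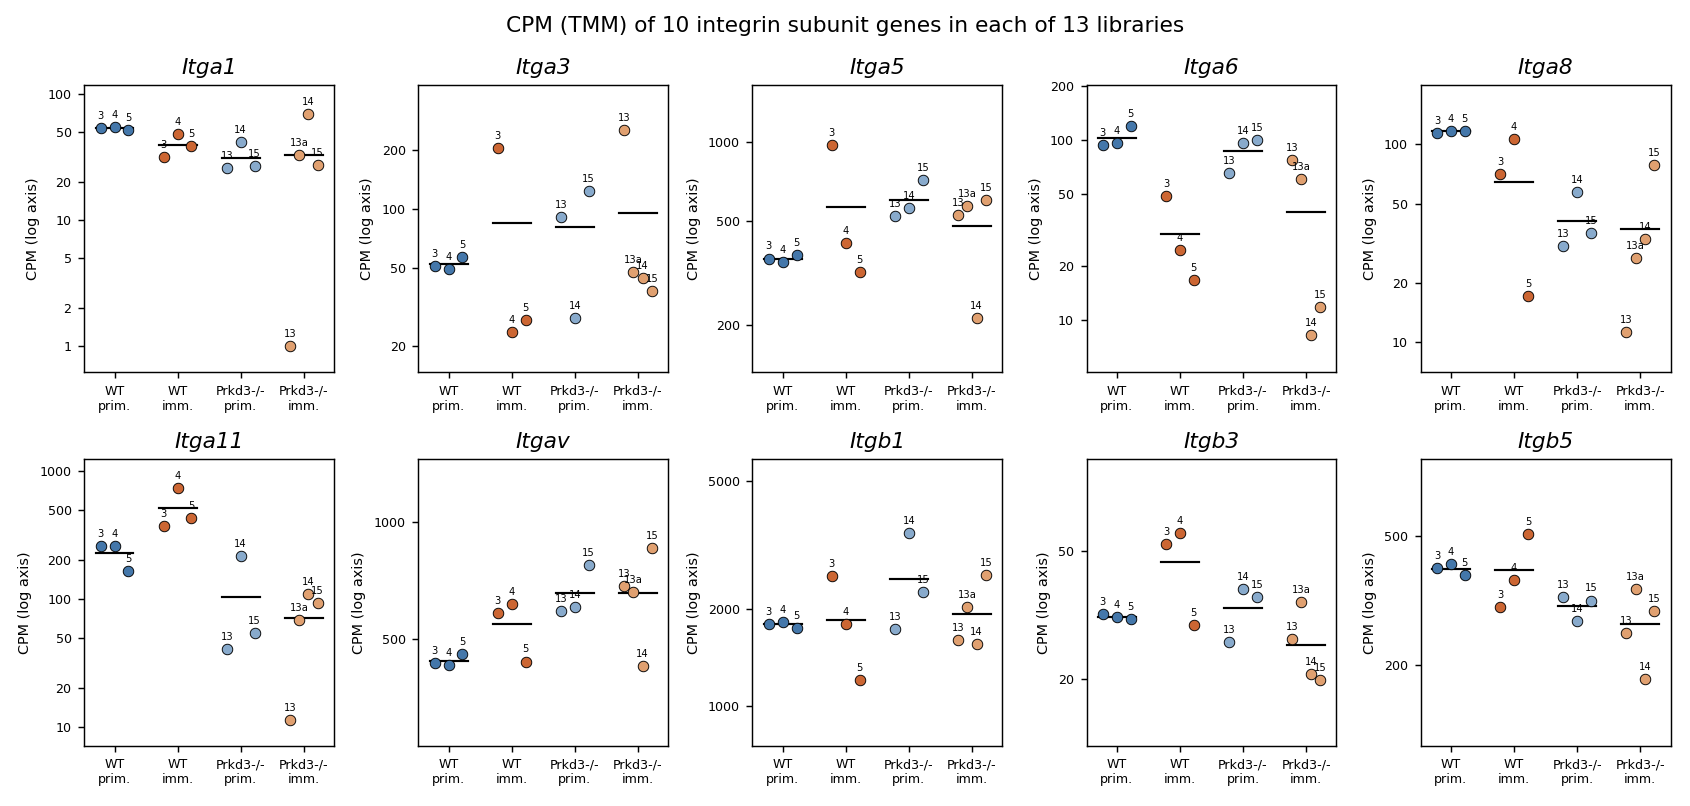
CPM (TMM, log axis with its own range per gene) of the 10 integrin genes in 13 libraries, grouped by genotype and state (prim., primary; imm., immortalized). Points are libraries labelled with their number, and lines are group means. Itga6 was lower in all 3 WT lines than in any WT primary library, and Itga1 was at 0.992 CPM in Prkd3-/- line 13.

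Itga1, on chromosome 13 (114953096 to 115101964, GRCm38, minus strand), is the alpha chain of a collagen receptor that prefers the basement membrane collagen IV. In WT primary libraries 3, 4 and 5 it was at 53.5, 54.5 and 51.9 CPM, and in WT lines 3, 4 and 5 at 31.6, 47.7 and 38.7 CPM. All 3 lines were below the primary libraries, with a log2FC of -0.44 (SE 0.16, edgeR adjusted p = 0.207). In Prkd3-/- it was at 25.7, 41.2 and 26.8 CPM in primary 13, 14 and 15, and at 0.992, 32.6, 69.3 and 27.2 CPM in lines 13, 13a, 14 and 15. Line 13 was far below and line 14 above every other library of its genotype, and the log2FC was 0.06 with an SE of 1.00 (edgeR adjusted p = 0.996).

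The 0.992 CPM of Itga1 in line 13 rested on 52 read pairs, well over the floor of 3, and was at a log2 ratio of -4.84 to the mean of the Prkd3-/- primary libraries. Line 13a, which shares its embryo number, was 0.06 above that mean. The median over all 852 tested genes of chromosome 13 was -0.0015 in line 13. Among the 8 tested genes within 500 kb the median was -0.21. Of these, Itga2, the alpha chain of another collagen receptor, was at -2.69, the activin antagonist Fst at -2.66 and Gm47040 at -2.93. Pelo was at 0.32 and Gm49395, whose exons cover 3.68% of those of Itga1, at 0.06. Itga2 was at only 1.32 to 3.17 CPM in Prkd3-/- primary libraries. In lines 13, 13a, 14 and 15 it was at 0.229, 7.86, 0.469 and 0.459 CPM, so it was low in lines 14 and 15 too.

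Itga11, on chromosome 9 (62677826 to 62783982, plus strand), is the alpha chain of the fibroblast receptor for fibrillar collagen I. It was at 260, 258 and 164 CPM in WT primary libraries 3, 4 and 5, and at 370, 734 and 432 CPM in the lines. Every line was above every primary library, and the log2FC of 1.17 (SE 0.33) had an edgeR adjusted p of 0.124 and a DESeq2 adjusted p of 0.0110, so it passed neither. Prkd3-/- cells had it at 40.6, 215 and 54.7 CPM in primary 13, 14 and 15, and at 11.4, 68.9, 109 and 92.6 CPM in lines 13, 13a, 14 and 15. The high primary library was 14, the one with the macrophage sum of 2138 CPM, and the low line was again 13. The log2FC was -0.56 (SE 0.82, edgeR adjusted p = 0.908), and without primary 14 it was 0.56 (adjusted p = 0.998), so that library set its direction.

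Itga3, on chromosome 11 (95044474 to 95076801, minus strand), is the alpha chain of a receptor for laminins, the glycoproteins of basement membranes. It was at 51.2, 49.4 and 56.8 CPM in WT primary libraries and at 206, 23.6 and 27.1 CPM in WT lines 3, 4 and 5. Line 3 lay above, and lines 4 and 5 below, all primary libraries. The log2FC was 0.70 (SE 0.87, edgeR adjusted p = 0.708) with all lines, and -1.05 (SE 0.11, adjusted p = 0.00780) without line 3, where the gene passed the thresholds as lower. DESeq2 gave no adjusted p for it.

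In Prkd3-/- cells Itga3 was at 91.2, 27.9 and 125 CPM in primary 13, 14 and 15, and at 253, 47.8, 44.4 and 38.4 CPM in lines 13, 13a, 14 and 15. Again 1 line, 13, stood above all other libraries, and the rest lay within the range of the primary ones. The log2FC was 0.22 (SE 0.81, edgeR adjusted p = 0.970), and -0.90 (adjusted p = 0.592) without line 13. The epithelial marker list, 7 genes, summed to 130 CPM in line 13 and 37.9 CPM in WT line 3 and to 0.779 to 17.2 CPM in the other 5 lines. Primary 13 and 15, with the next highest Itga3, were at 44.5 and 61.8 CPM. In both lines nearly all of it was the keratin Krt19 (129 and 37.7 CPM), while the defining epithelial genes Epcam and Cdh1 were at 0.0644 CPM or less in both these lines. The part of these markers' source in the Itga3 values was not tested.

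Itga6, on chromosome 2 (71745616 to 71858416, plus strand), is the other laminin receptor alpha chain and is used by many stem and progenitor cells. It was at 94.1, 95.6 and 119 CPM in WT primary libraries and at 48.9, 24.6 and 16.7 CPM in WT lines 3, 4 and 5. Every line was below every primary library, and the log2FC was -1.78 (SE 0.41). Its adjusted p was 0.0743 in edgeR and 0.000503 in DESeq2, so the call depended on the test. Without WT line 3, the least lowered, edgeR gave -2.31 with an adjusted p of 0.00695 and called it. Omitting the least lowered line favours a larger drop. Other alternatives gave weaker results for Itga6 in WT. Its smallest drop was -1.48, from a fit that omitted another library, and its highest adjusted p among all 16 alternatives was 0.418. The macrophage, endothelial and muscle marker sums were also below those of the primary libraries in every WT line, with median log2FC of -4.15, -2.61 and -2.96, and their part in the Itga1, Itga6 and Itga8 values was not tested.

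In Prkd3-/- cells Itga6 was at 65.5, 95.7 and 99.8 CPM in primary 13, 14 and 15, and at 77.6, 60.8, 8.21 and 11.7 CPM in lines 13, 13a, 14 and 15. Lines 14 and 15 were far below the primary libraries, and lines 13 and 13a were near primary 13. The log2FC of -1.16 (SE 0.76) had an edgeR adjusted p of 0.843. The macrophage marker sum was 22.9, 354, 14.8 and 25.4 CPM in lines 13, 13a, 14 and 15. The median over the 10 tested genes within 500 kb of Itga6 was 0.19 in line 14 and 0.12 in line 15, against -3.39 and -2.88 for Itga6.

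The level of Itga3 relative to Itga6 in RPKM was 0.765 to 0.872 in WT primary libraries and 1.54 to 6.74 in the WT lines. In Prkd3-/- it was 2.23, 0.467 and 2.0 in primary 13, 14 and 15 and 1.26 to 8.65 in the lines. Thus Itga3 exceeded Itga6 per length in each of the 7 lines, and the values of the states overlapped in Prkd3-/- only. In WT 31.3% of single genes tested did not overlap, and no such share was taken over other ratios.

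**Figure D2:**
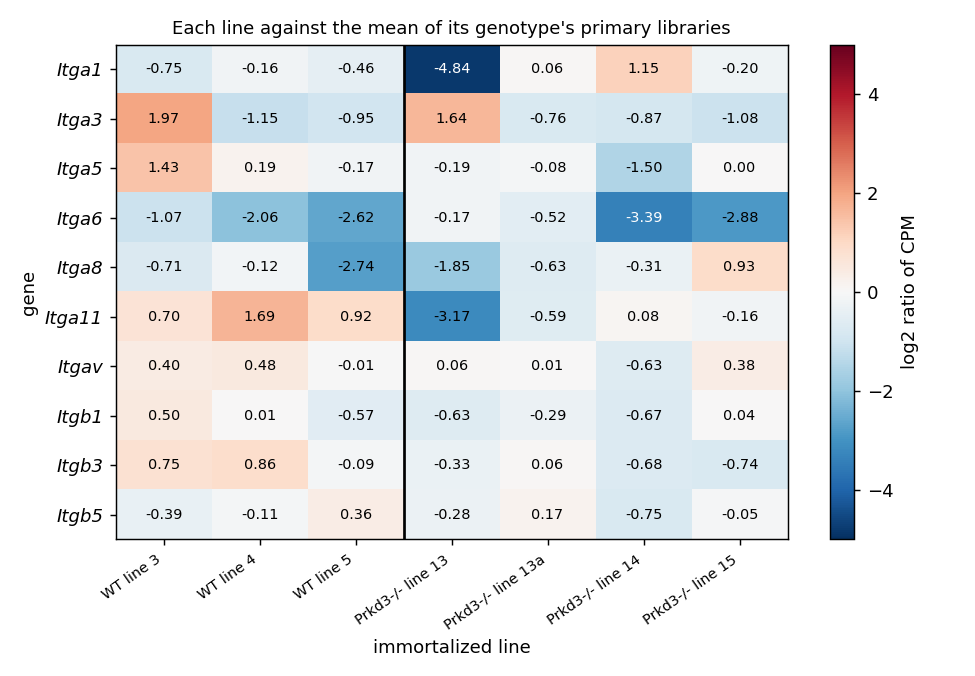
Log2 ratio of CPM of each of the 10 integrin genes (rows) in each of 7 immortalized lines (columns) to the mean of the primary libraries of its genotype, with the value printed in the cell. Red is higher and blue is lower in the line. Itga6 was below 0 in all 7, and Itga3 was above 0 in WT line 3 (1.97) and Prkd3-/- line 13 (1.64) and below 0 in the other 5. Against the primary library of the same number, not plotted, Itga6 was at 0.24 in Prkd3-/- line 13 and Itga3 at 0.67 in Prkd3-/- line 14. The other signs of these genes stayed the same.

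The alpha chains Itga5, Itga8 and Itgav bind the RGD motif of fibronectin, vitronectin and other matrix proteins. Itga5, on chromosome 15 (103344286 to 103366763, minus strand), forms the main fibronectin receptor with Itgb1. It was at 358, 347 and 369 CPM in WT primary libraries and at 967, 409 and 318 CPM in WT lines 3, 4 and 5. Line 3 was high and line 5 was below the primary libraries, with a log2FC of 0.66 (SE 0.43, edgeR adjusted p = 0.460). For Prkd3-/- the level was at 522, 559 and 717 CPM in primary 13, 14 and 15, and at 526, 566, 212 and 600 CPM in lines 13, 13a, 14 and 15. Only line 14 of these lines lay outside the primary range, and the log2FC was -0.35 (SE 0.36, edgeR adjusted p = 0.880). The 22 tested genes within 500 kb of Itga5 had a median of -1.72 in line 14, where Itga5 was at -1.50. In line 13 their median was -2.34, where Itga5 was at -0.19. Over the 800 tested genes of chromosome 15 the median was 0.063 in line 14 and 0.035 in line 13. Values of single neighbours are not given here, so these medians do not show whether all of them were lower. Their part in the Itga5 values was not tested.

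Itga8, on chromosome 2 (12106632 to 12301922, minus strand), is the alpha chain of the receptor for nephronectin and fibronectin. It was at 114, 117 and 117 CPM in WT primary libraries and at 70.7, 106 and 17.2 CPM in WT lines 3, 4 and 5. Every line was below the primary libraries, line 5 by the most, with a log2FC of -0.84 (SE 0.60, edgeR adjusted p = 0.501). The Prkd3-/- libraries held it at 30.8, 57.4 and 35.5 CPM in primary 13, 14 and 15, and at 11.3, 26.6, 33.1 and 78.5 CPM in lines 13, 13a, 14 and 15. The lines lay on both sides of the primary libraries, with a log2FC of -0.15 (SE 0.60, edgeR adjusted p = 0.972). The antisense gene E030013I19Rik covers 5.05% of its exons, and the WT table was counted without strand.

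Itgav, on chromosome 2 (83724397 to 83806916, plus strand), pairs with Itgb1, Itgb3 and Itgb5 in receptors for vitronectin and for latent TGF-beta. It was at 435, 429 and 459 CPM in WT primary libraries and at 584, 616 and 439 CPM in WT lines 3, 4 and 5. Among Prkd3-/- libraries it was at 593, 607 and 775 CPM in primary 13, 14 and 15, and at 686, 660, 426 and 857 CPM in lines 13, 13a, 14 and 15. The states overlapped in both genotypes, with a log2FC of 0.31 (SE 0.16, edgeR adjusted p = 0.354) in WT and -0.015 (SE 0.26, adjusted p = 0.996) in Prkd3-/-. The antisense gene Gm13684 covers 5.90% of its exons.

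Itgb1, on chromosome 8 (128685654 to 128733200, plus strand), was the most abundant of the 10 per length in all 4 groups. It was at 1804, 1834 and 1754 CPM in WT primary libraries and at 2535, 1807 and 1208 CPM in WT lines 3, 4 and 5. In Prkd3-/- it was at 1735, 3456 and 2258 CPM in primary 13, 14 and 15, and at 1610, 2031, 1559 and 2550 CPM in lines 13, 13a, 14 and 15. The highest value was in primary 14 and the lowest in WT line 5, and the states overlapped in both genotypes. The log2FC was 0.04 (SE 0.28, edgeR adjusted p = 0.955) in WT, where it was -0.11 by library size alone, and -0.37 (SE 0.31, adjusted p = 0.857) in Prkd3-/-.

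Itgb3, on chromosome 11 (104608000 to 104670476, plus strand), forms with Itgav the vitronectin receptor known from osteoclasts and angiogenic vessels. It was at 32.0, 31.2 and 30.7 CPM in WT primary libraries and at 52.5, 56.9 and 29.4 CPM in WT lines 3, 4 and 5. Lines 3 and 4 were above the primary libraries and line 5 just below, with a log2FC of 0.56 (SE 0.25, edgeR adjusted p = 0.288). Prkd3-/- cells had it at 26.1, 38.05 and 35.9 CPM in primary 13, 14 and 15, and at 26.6, 34.8, 20.7 and 19.9 CPM in lines 13, 13a, 14 and 15. Here lines 14 and 15 were below all primary libraries, with a log2FC of -0.40 (SE 0.26, edgeR adjusted p = 0.843).

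Itgb5, on chromosome 16 (33829665 to 33949338, plus strand), is the other Itgav partner for vitronectin, found at flat adhesions and in endocytosis. It was at 398, 410 and 380 CPM in WT primary libraries and at 303, 366 and 509 CPM in WT lines 3, 4 and 5. For Prkd3-/- the level was at 323, 274 and 317 CPM in primary 13, 14 and 15, and at 251, 344, 181 and 294 CPM in lines 13, 13a, 14 and 15. The states overlapped in both genotypes, with a log2FC of -0.01 (SE 0.21, edgeR adjusted p = 0.983) in WT and -0.20 (SE 0.24, adjusted p = 0.889) in Prkd3-/-. The RPKM of Itgb5 was 20.6 to 21.8 times that of Itgb3 in WT primary libraries, 9.57 and 10.7 times in WT lines 3 and 4, and 28.7 times in line 5.

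Within Prkd3-/-, none of the 10 genes passed, and none of 20298 genes did (0%). At an unadjusted p under 0.05 were 0 of the 10 and 1331 genes (6.56%), and DESeq2 called none of the 10 and 190 of 34447 genes (0.552%). For 0 of the 10 did the libraries of both states keep apart, against 9.45% of genes. The difference between genotypes was tested as the interaction of state and genotype (the log2FC in Prkd3-/- less that in WT) over 13 libraries. It passed an edgeR adjusted p of 0.05 for none of the 10 and for none of 21197 genes (0%). DESeq2 called 37 of 36463 genes (0.101%) and none of the 10. Only Itgb3, with a difference of -0.95 (SE 0.37), had an unadjusted p under 0.05 (0.0255), against 3.97% of genes, and its edgeR adjusted p was 1.0. The difference for Itga11 was -1.72 (SE 1.01, edgeR adjusted p = 1.0), so the values of 1.17 in WT and -0.56 in Prkd3-/- were not shown to differ.

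**Figure D3:**
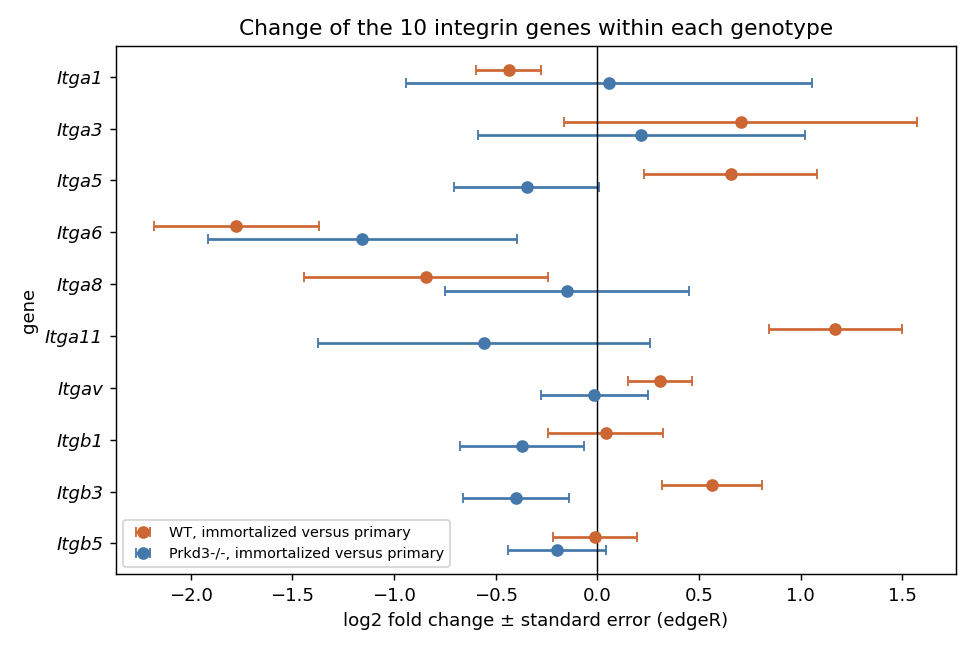
Log2 fold change of immortalized against primary libraries for the 10 integrin genes (y axis) in WT (3 against 3 libraries, orange) and Prkd3-/- (4 against 3 libraries, blue), with bars of 1 standard error from edgeR. Itga6 was negative in both (-1.78 and -1.16), and Itga11 was at 1.17 in WT and -0.56 in Prkd3-/-.

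Set side by side without a test, the genotypes already stood apart in the primary state for some of the 10 genes. Itga1, Itga8 and Itgb5 were lower in every Prkd3-/- than in every WT primary library, against 18.4% of all genes, and Itga5 and Itgav were higher, against 15.3%. Among the lines, of the 10 only Itga11 kept the genotypes apart, lower at 11.4 to 109 CPM in Prkd3-/- against 370 to 734 CPM in WT, as were 4.16% of all genes. The genotypes were deposited in separate tables, so genotype and deposit cannot be told apart. Xist was at 0.156 CPM or less in all Prkd3-/- libraries and at 43.8 CPM or more in all WT libraries. The sex of the cells thus differed with genotype and cannot be told apart from it either.

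Per length, Itgb1 led in all groups with a mean RPKM of 440 ± 9.87 (SD, n = 3) in WT primary libraries, 453 ± 163 (n = 3) in WT lines, 608 ± 216 (n = 3) in Prkd3-/- primary libraries and 475 ± 113 (n = 4) in Prkd3-/- lines. Next in WT primary libraries came Itgb5 (111 ± 4.23), Itga5 (72.6 ± 2.19), Itga11 (44.3 ± 10.7) and Itgav (41.1 ± 1.45), followed by Itga8, Itga6, Itga3, Itgb3 and, lowest, Itga1 (2.86 ± 0.0697). In that group only the neighbours Itga11 and Itgav overlapped. In WT lines Itga5 (114 ± 71.2), Itgb5 (110 ± 29.7) and Itga11 (99.8 ± 38.0) overlapped with their neighbours in this order, and so did all from Itga3 down to Itga1. In Prkd3-/- primary libraries Itga11, Itga3 and Itga6 overlapped in that order, as did Itgb3 and Itga8, and in the Prkd3-/- lines every pair of neighbours below Itgb1 did. Itga1 was last in each group, counted over 18599 listed exon bases.

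Among the 6 alpha chains that pair with Itgb1 and with no other beta chain of the 10, Itga5 had the largest share of summed RPKM in 11 of 13 libraries and Itga11 in 2, WT lines 4 and 5. Itga6 made up 6.40%, 6.60% and 8.77% of the sum in WT primary libraries and 1.67%, 1.08% and 1.15% in WT lines 3, 4 and 5. The share of Itga11 was 31.5%, 31.8% and 21.6% in WT primary libraries and 22.5%, 57.3% and 52.7% in those lines. Lines 4 and 5 were thus high in Itga11, while line 3 was high in Itga5 (61.1%) and in Itga3 (11.2%). In Prkd3-/- primary libraries Itga5 made up 62.7% to 74.5%, and in the lines 52.9% to 77.2%. Line 13 was the one with 27.2% Itga3 and 1.36% Itga11.

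**Figure D4:**
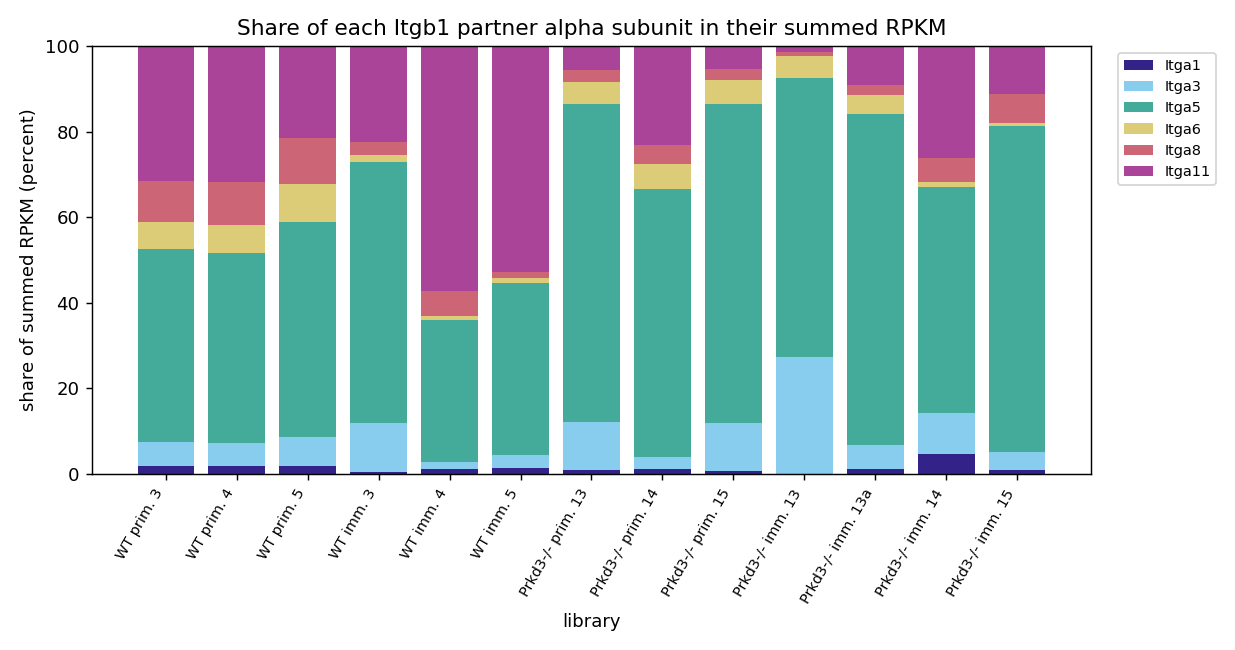
Share (percent) of each of 6 alpha subunits that pair with Itgb1 in their summed RPKM, 1 stacked bar per library (prim., primary; imm., immortalized). Itga5 is the largest part in 11 of 13 libraries, and Itga6 is at 6.40% to 8.77% in WT primary libraries and at 1.08% to 1.67% in WT lines.

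The RPKM of Itgb1 was 2.75 to 2.90 times the sum of those 6 alpha chains in WT primary libraries and 1.77 to 1.94 times in WT lines, which did not overlap. In Prkd3-/- the ratio was 2.84 to 4.69 in primary libraries and 2.41 to 4.71 in lines, which did. Among single genes 31.3% of those tested in WT did not overlap, and no such share was taken over other ratios. Grouped by ligand, the collagen receptor alphas Itga1 and Itga11 summed to 34.8 to 53.5 RPKM in WT primary libraries and 73.8 to 146 RPKM in WT lines, and to 9.30 to 44.2 and 2.28 to 25.0 RPKM in the Prkd3-/- states. The laminin receptor alphas Itga3 and Itga6 summed to 19.1 to 23.0 RPKM in WT primary libraries and to 41.4, 6.83 and 6.57 RPKM in lines 3, 4 and 5. The RGD receptor alphas Itga5, Itga8 and Itgav summed to 126 to 133 RPKM in WT primary libraries and to 260, 155 and 108 RPKM in those lines. So WT line 3 had the highest laminin and RGD receptor sums of the WT libraries and the lowest collagen receptor sum of the WT lines. These are shares of RNA, not of protein.

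The lines of a genotype differed widely in several alpha chains. The ratio of the highest to the lowest WT line was 8.72 for Itga3, 6.17 for Itga8, 3.04 for Itga5 and 2.93 for Itga6, where the median over 17294 genes was 1.47. Itgb1 (2.10), Itga11 (1.99), Itgb3 (1.93), Itgb5 (1.68) and Itga1 (1.51) also lay above that median, and Itgav (1.40) below it. Among Prkd3-/- lines it was 69.8 for Itga1, 9.58 for Itga11, 9.45 for Itga6, 6.92 for Itga8 and 6.61 for Itga3, where the median over 16546 genes was 2.07. Itgav, Itgb1, Itgb3 and Itgb5 differed by 1.64 to 2.01 there, under that median. WT primary libraries had a median ratio of 1.11, and Itga11 (1.58) was the widest of the 10. In Prkd3-/- primary libraries, with a median of 1.37, Itga11 (5.30) and Itga3 (4.46) were widest, which primary 14 set in both.

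The genes whose pattern over 13 libraries was most like that of each integrin are given by the mean absolute difference of log2 CPM, each gene centred on its mean, as a description. Itga5 and Itgav were the nearest pair of the 10 at 0.239, and Itgb1 lay 0.295 from Itgav and Itgb3 0.329 from Itgb1. A gene of constant level would lie 0.290 from Itgb1, 0.320 from Itgb3 and 0.287 from Itgav, so the distances of Itgb1 and Itgb3 to these partners are no less than to a flat line. The nearest of the 10 was Itgb5 for Itga1 (0.790) and Itga8 for Itga11 (0.950). It was Itga5 for Itga3 (0.730) and Itga6 (1.00), and Itgb3 for Itga8 (0.846) and Itgb5 (0.391). A flat line would lie nearer to Itgb5, at 0.270. For the pair Itga5 and Itgav, 29 genes were nearer to Itga5 and 1166 nearer to Itgav than the partner. Itga5 was nearest to Mir6963 (0.0854), which lies within its own span, and Itga8 to its antisense gene E030013I19Rik (0.131), which shares exon bases with it. For the others the nearest gene lay on another chromosome: Rnf130 for Itga1 (0.260), Gprc5a for Itga3 (0.359), Gm29397 for Itga6 (0.122), Parm1 for Itga11 (0.486), Lclat1 for Itgav (0.112), Tsc22d2 for Itgb1 (0.152), Tanc1 for Itgb3 (0.169) and Gm38317 for Itgb5 (0.0700). Over the 15805 genes compared, the median distance was 1.33 for Itga11 and 0.395 for Itgav. Itga11 thus had the most distant nearest gene of the 10.

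The counts called among the other integrins and their partners are to be read beside the shares of all genes, and no set test was run. In WT edgeR called 1.82% of all genes and DESeq2 4.08%, and in Prkd3-/- they called 0% and 0.552%. None of the 8 tested other matrix integrins was called by edgeR in either genotype, while DESeq2 called 2 lower in WT, Itga4 and Itgb4, and 1 in Prkd3-/-, Itga4. By mean CPM over all 13 libraries the most abundant of them were Itga9, a receptor for tenascin, and the laminin receptor chain Itga7. Their log2FC in WT was 0.46 (edgeR adjusted p = 0.487) and -0.87 (edgeR adjusted p = 0.310). In WT primary libraries Itga4, with a mean of 37.3 CPM, was above both (19.9 and 20.7 CPM). Itga4, the alpha chain of the fibronectin and VCAM1 receptor, and Itgb4, a laminin receptor beta chain, were picked after their values were seen. Itgb4 was at 2.73 to 3.45 CPM in WT primary libraries and 0.808 to 1.45 CPM in the lines, with a log2FC of -1.48 (SE 0.27, edgeR adjusted p = 0.0353, DESeq2 adjusted p = 1.0e-05). Itga4 was at 35.9, 36.4 and 39.6 CPM in WT primary libraries and at 1.05, 1.37 and 3.63 CPM in the lines, with a log2FC of -4.20 (SE 0.53, edgeR adjusted p = 0.0115). In Prkd3-/- its log2FC was -1.92 (edgeR adjusted p = 0.394), with every line (1.59 to 5.23 CPM) below every primary library (11.3 to 18.8 CPM).

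All 6 tested leukocyte integrins had a negative log2FC in WT, and edgeR called 1 lower, Itgam, the complement receptor alpha chain of macrophages, at -4.70 (SE 0.38, edgeR adjusted p = 0.0029), 68.7% of whose exon length also lies in Gm49368. DESeq2 called 2, Itgam and its beta chain Itgb2, which was at 35.1 to 36.8 CPM in WT primary libraries and 1.92 to 8.13 CPM in the lines (log2FC -3.13, edgeR adjusted p = 0.0465, DESeq2 adjusted p = 6.8e-07). Of 23 adaptors of integrin tails 1 was called lower, Fermt3, the kindlin of blood cells, at -3.87 (SE 0.45, edgeR adjusted p = 0.00866), and the list's median was 0.34. The macrophage markers had 7 of 12 called lower in WT by edgeR and 11 by DESeq2, with a median log2FC of -4.15, and their part in these values was not tested. Of the ligands, 0 of 6 collagen, 0 of 10 laminin and 0 of 13 RGD ligand genes were called in WT, with medians of 0.62, 0.11 and 0.08. Col1a1 (0.57) and Col1a2 (0.28), Lamc1 (0.07) and Lamb1 (0.43), and Fn1 (0.60) and Thbs1 (0.51) led these lists in level, all with edgeR adjusted p-values over the threshold. In Prkd3-/- edgeR called 0 genes of any of these integrin, adaptor and ligand lists, and DESeq2 called Itga4 alone.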

How the data were processed

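Poly-A RNA of 13 MEF libraries was sequenced in pairs on an Illumina instrument. Per the labels, the authors used FastQC 0.12.0, STAR 2.7.10a on mm10, SAMtools 1.18 and featureCounts of Subread 2.0.6, and deposited 2 tables of raw counts per gene, 1 per genotype. The header of the WT table shows read pairs counted without strand and assigned to every gene they overlap, so overlapping genes can count the same pair. The options behind the Prkd3-/- table are not given in the sources used here, but it lists the same genes and lengths.

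Each genotype was fitted over all genes with edgeR 4.0.16 in R 4.3.3 (quasi-likelihood test, TMM, filterByExpr, robust estimation), called where the adjusted p was below 0.01 and |log2FC| 1 or more. The interaction used all 13 libraries at an adjusted p under 0.05. P-values were adjusted by Benjamini-Hochberg over all genes tested, two-sided. The fits were tested on simulated counts. DESeq2 1.42.0, limma 3.58.1 with a weight per state, other scalings and filters, a block for the clone, a joint fit, summed lines 13 and 13a and each library left out were alternatives. DESeq2 adjusted p-values of NA were kept as NA. RPKM is CPM per kilobase of the deposited gene length. Ratios of lines to primary libraries use a pseudocount of 0.1 CPM, and the likeness of genes uses a prior count of 1 among genes with a mean of at least 1 CPM. Spreads between libraries are over genes with at least 10 counts in each library of a group.

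The integrins, the gene lists and the tests were chosen with earlier results of these data known. All 10 integrins were named, with genes called in the other lists, or the 2 of highest mean CPM where none was, and for each integrin the nearest other one and the nearest gene. Clone numbers were taken to pair primary and line by embryo, as a figure legend of the paper states for its WT samples. Each WT primary library held both Xist and Ddx3y, so the counts do not show that each came from a single embryo. Their median ratio of highest to lowest CPM was 1.11, against 1.37 in Prkd3-/- primary libraries. If the WT primary libraries are not independent, the standard errors and p-values within WT are too small, which was not tested. Deviations from group means correlated between same-numbered libraries at -0.033, 0.0186 and -0.039 for WT 3, 4 and 5, and at 0.142, -0.283, 0.088 and 0.0396 for Prkd3-/- 13, 13a, 14 and 15. Floors of 3 counts cover counting error only, because PCR copies of a molecule are counted too.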

Additional observations from a re-analysis of the deposited data

Results flagged for a closer look

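Among the 4 Prkd3-/- lines, line 13 lay far from the others in 2 of 25 measures examined, by a gap to the nearest value divided by the whole range over Dixon's 95% critical value for 4 samples. Chance alone passes this value in about 1 in 20 groups. Itga3 was at 253 CPM in line 13 and at 38.4 to 47.8 CPM in lines 13a, 14 and 15, with a gap of 0.956 of the range. The summed laminin receptor alphas Itga3 and Itga6, which include the same Itga3 value, were at 52.9 RPKM in line 13 and 8.0 to 15.03 RPKM in the others, with a gap of 0.844.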

How the results depend on the processing

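The number of integrin genes called within WT was 0, 1 with DESeq2 (Itga6), and 0 to 2 when each library was left out, the 2 being Itga3 and Itga6 without WT line 3. It was 0 within Prkd3-/- and for the interaction under every alternative run. Pairing by embryo was tested with a replicate block for the clone, which left 0 integrin genes called in each comparison. Over all WT genes the 361 calls became 1361 with DESeq2, 157 with at least 10 counts in every library, 198 with limma, 1045 at an adjusted p under 0.05 with no minimum fold, 0 with the block, 0 in the joint fit, and 48 to 743 with each library left out. Among the Prkd3-/- genes 190 were called with DESeq2 and 1 in the joint fit, and in the interaction 37 with DESeq2.

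The log2FC of Itga6 was negative in WT and in Prkd3-/- under every alternative run, and that of Itga11 positive in WT. Itga5 and Itgb3 also kept their sign in both genotypes under every alternative. So did Itga1, Itga8 and Itgav in WT, and Itgb1 and Itgb5 in Prkd3-/-. The other values changed sign under some alternative. In WT, Itga3 was -0.037 with limma and -0.12 with the block, and Itgb1 -0.11 by library size alone, -0.020 with limma and -0.023 with the block. In Prkd3-/-, Itga1 was -0.90 with limma and -0.032 with the block, Itga3 -0.015 and -0.012, and with lines 13 and 13a summed Itga3 was -0.21 and Itga8 0.069. In the interaction, Itga1 was -0.42 and Itga3 0.030 with limma, and with the block Itga3 was 0.12 and Itga6 -0.30. The cause was not tested.

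With each library left out, the WT log2FC ran from -1.05 to 1.15 for Itga3, -0.25 to 0.27 for Itgb1 and -0.24 to 0.15 for Itgb5. In Prkd3-/- it ran from -0.63 to 0.46 for Itga1, -0.90 to 0.68 for Itga3, -0.80 to 0.17 for Itga8, -0.94 to 0.56 for Itga11 and -0.17 to 0.14 for Itgav. The interaction ran from -0.18 to 0.90 for Itga1, -1.60 to 1.26 for Itga3 and -0.36 to 0.027 for Itgb5. A group left with fewer libraries shares its spread with the others in the fit. Library size alone moved the median log2FC of all genes from 0.04 to -0.10 in WT and from 0.06 to 0.18 in the interaction. Taking shares among the alpha chains from CPM, without gene length, moved 11 of 24 group shares beyond the spread between libraries. In WT primary libraries and WT lines the mean share of Itga6 went from 7.25% and 1.30% to 11.3% and 2.23%, and that of Itga1 from 1.84% and 0.954% to 5.86% and 3.32%. Depth did not limit the levels, since the lowest value of any integrin gene, Itga1 in Prkd3-/- line 13, rested on 52 counts.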
